A study of Mus musculus with 139 samples.

Results

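The outer hair cells (OHCs) of the base of the mouse cochlea were set against those of its middle region. Cells were chosen by their labels: the 8 cells labelled as OHCs of the base and the 23 labelled as OHCs of the middle, together 31 of the 139 single cells sequenced. Each sample is 1 cell, taken from the cochlea of mice between postnatal days 14 and 16. The labels name no animal, litter, genotype or strain, so each region counts as 1 sample, cells are not replicates of a region, and no test between the regions was possible. The titles number the cells, and the numbers fall in 2 ranges. Up to 100 there were 6 basal OHCs (41 and 48 to 52) and 16 middle OHCs (23 to 40). Above 100 there were 2 basal OHCs and 7 middle OHCs. Nothing in the labels says what the ranges stand for. Within the lower range the basal and middle cells also carry separate blocks of numbers, so block and region cannot be told apart.

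OHCs change length with their membrane potential through the motor protein prestin, encoded by Slc26a5, and so amplify the vibration that reaches them. Deflection of the hair bundle opens mechanotransduction channels at the tips of its stereocilia, potassium and calcium enter, and potassium leaves through channels of the basolateral membrane. The cochlea is tuned along its length, with high frequencies at the base and lower ones towards the apex, and the study asked how hair cells differ between these regions.

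Hair cell genes with far lower pooled levels in the basal OHCs included Tmie and Lhfpl5, of the mechanotransduction channel complex, and the transcription factor Isl1. Their upstream sequences are shown because these 3 genes were lower together and all carry the E-box letters CAGCTG, a kind of site that basic helix-loop-helix factors bind. Each stretch is from RefSeq on GRCm38.p6, on the strand of the gene, 5′ to 3′, and ends before the first base of the longest annotated transcript. Capitals mark CAGCTG, which reads the same on both strands. The stretches lie at chr9:110880114-110880323 for Tmie (minus strand), chr17:28575469-28575640 for Lhfpl5 (plus strand) and chr13:116309690-116309938 for Isl1 (minus strand). The capitals begin 206 bases before the RefSeq start in Tmie and 234 bases before it in Lhfpl5.
Tmie: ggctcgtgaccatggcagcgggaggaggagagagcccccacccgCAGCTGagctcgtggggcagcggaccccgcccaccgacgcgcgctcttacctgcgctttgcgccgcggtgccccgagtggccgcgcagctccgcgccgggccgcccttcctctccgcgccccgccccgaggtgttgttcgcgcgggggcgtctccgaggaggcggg
Lhfpl5: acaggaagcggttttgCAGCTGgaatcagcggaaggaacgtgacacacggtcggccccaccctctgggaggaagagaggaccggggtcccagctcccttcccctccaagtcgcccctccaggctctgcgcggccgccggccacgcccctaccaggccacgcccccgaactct
Isl1: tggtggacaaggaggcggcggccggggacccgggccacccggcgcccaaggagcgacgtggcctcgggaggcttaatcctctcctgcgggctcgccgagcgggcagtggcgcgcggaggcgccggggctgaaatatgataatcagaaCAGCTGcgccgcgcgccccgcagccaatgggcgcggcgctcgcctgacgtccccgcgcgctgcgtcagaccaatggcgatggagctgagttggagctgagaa
The letters were found in 4271 of all 32851 windows of 250 bases before a RefSeq start, or 13%. Among the mechanotransduction genes they were in 4 of 15 windows, or 26.7%, and these belonged to 4 of 11 genes. The genes and the motif were picked with their values and windows already seen, and a match is a description of these letters, not evidence of a binding site.

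Basal OHCs summed to 28574809 counts (134269 to 8831447 per cell, median 2522426) and middle OHCs to 94869815 counts (71027 to 12100685, median 1871530). Among cells numbered up to 100 basal OHCs summed to 25958946 and middle OHCs to 24834280 counts, whereas above 100 they were 2615863 counts in 2 basal cells and 70035535 in 7 middle cells. The similar sums up to 100 hide unlike depths per cell, with medians of 4120300 counts and 7093 genes in basal OHCs and 762541 counts and 5334 genes in middle OHCs. Most middle counts of that range came from cells 37, 24, 25 and 27, with 5480966, 3819016, 3509355 and 2985289 counts, and these cells weigh most in its pooled levels. Basal OHC 41 held 30.9% of the basal counts, and the shallower of the 2 above 100 held 0.47%. These 2 stood apart, with 26.1% of counts on a single rRNA-like gene in the shallower and 29% in the other. Among the middle OHCs the 7 cells above 100 stood apart from the 16 others. Correlations of log2 levels between pairs of cells had a median of 0.666 in the 21 pairs of middle cells above 100, and of 0.285 in the 120 pairs up to 100. The corresponding median was 0.429 over 15 pairs of basal cells up to 100. The gene lists are therefore given over all cells and again within numbers up to 100, where fewer members passed the filter.

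Levels are CPM, the counts of a gene scaled to the total of its group or cell, and intervals in brackets are exact Poisson intervals at 95%, which cover counting error only. Differences are log2 ratios of pooled (CPM + 1) after TMM scaling, basal over middle, so a positive value means higher in the basal OHCs, and the ratio of low genes is understated. TMM scaling raises a difference by up to about 1 over scaling by total counts. Of 9498 genes with at least 5 scaled CPM in 1 of the groups, 2313 (24.4%) were at least 2-fold higher in basal OHCs and 5947 (62.6%) at least 2-fold lower. With total counts the shares were 17.7% and 68.3%. The median difference over all genes was −2.55, or −3.14 with total counts. Up to number 100 the balance turned: of 4848 genes, 53.5% were higher and 37.8% lower (49.3% and 41.3% with total counts), around a median of 1.68, or 0.88 with total counts. Counts and medians of gene lists are read against these values, since a list near them says nothing about its own genes. For every gene described, the ranges of the 2 regions over all cells overlapped.

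The labels were checked first against markers of OHCs. Of 10 OHC markers 9 passed the filter, and 0 were 2-fold higher and 5 lower in basal OHCs, with a median of −2.45 beside −2.55 over all genes. In cells up to 100 it was 2 and 5 of 9, with a median of −1.77 beside 1.68. Slc26a5 (prestin, chr5:21810655-21865604 on GRCm38) had 0, 0.253 and 76.9 CPM as the lowest, median and highest of the basal OHCs, and 0, 1.72 and 737 CPM in the middle OHCs. It passed 10 CPM in 1 of 8 basal cells and 9 of 23 middle cells. Pooled, Slc26a5 had 24.1 CPM (22.3 to 25.9) in basal OHCs against 271 CPM (267 to 274) in middle OHCs, a difference of −2.45, and −6.96 without basal OHC 41. The 7 middle OHCs numbered above 100 all had at least 46.8 CPM. Ocm, which encodes the calcium buffer oncomodulin, spanned 0 to 9533 CPM in basal OHCs (median 37.8) and 0 to 8930.1 CPM in middle OHCs (median 127). Its pooled levels were 3102 CPM in basal OHCs and 4309.5 CPM in middle OHCs, a difference of 0.53, which was −0.47 with total counts and −3.39 without basal OHC 41. Ikzf2, the transcription factor helios, ran over 0.352 to 1984 CPM (median 9.16) in basal OHCs and 3.01 to 3609.7 CPM (median 126) in middle OHCs, with pooled levels of 617 CPM in basal OHCs and 1150.2 CPM in middle OHCs. Its difference was 0.10, and it turned to −0.90 with total counts and to −6.70 without basal OHC 41. Pooled basal levels of these 3 markers thus came mainly from 1 of 8 cells. Lbh was at 19.5 CPM in basal OHCs and 299 CPM in middle OHCs, with a difference of −2.90 and of −4.96 without basal OHC 41, and Sri, which encodes the calcium-binding protein sorcin, at 12.6 CPM in basal OHCs and 436 CPM in middle OHCs, with a difference of −4.04.

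**Figure D1:**
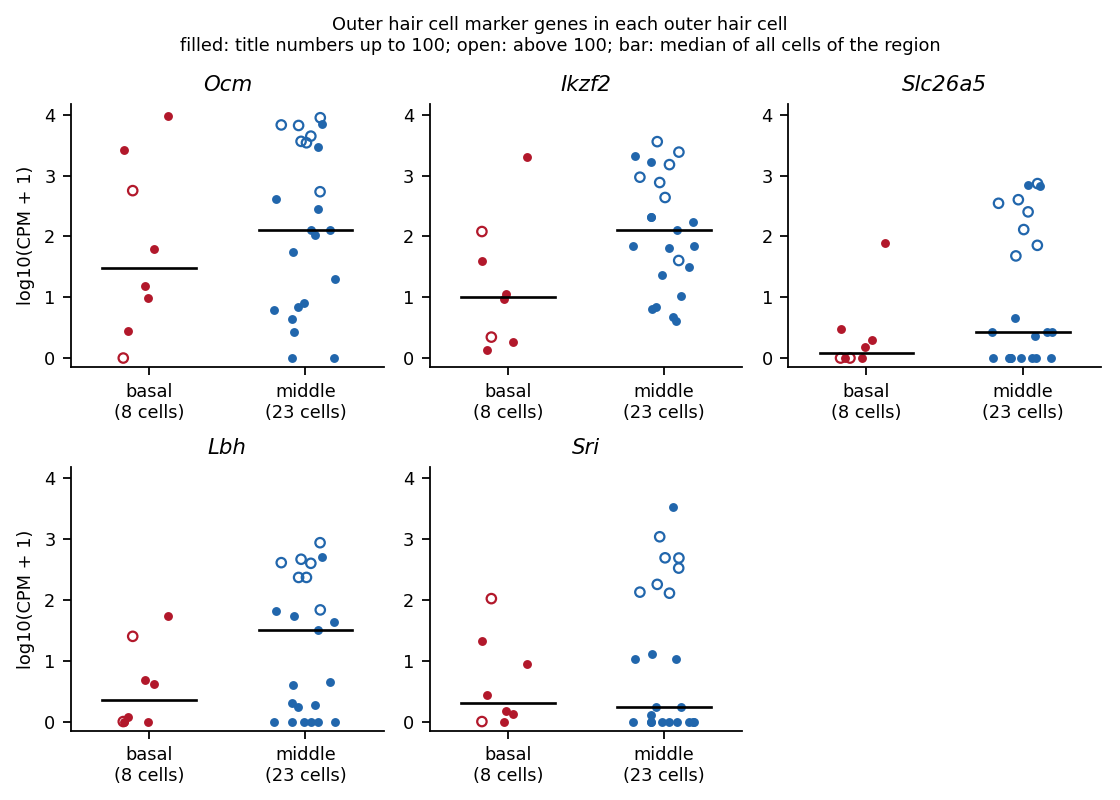
Levels of 5 OHC markers in each cell, as log10(CPM + 1), with basal OHCs left of middle OHCs. Filled points are cells with title numbers up to 100, open points those above 100, and bars are medians. Ocm, Ikzf2 and Slc26a5 reach their highest basal level in 1 cell, basal OHC 41, and most of the open points of the middle OHCs lie high.

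OHC markers together made up 0.000405% to 1.18% of a basal cell's counts (median 0.0406%) and 0.00247% to 1.34% of a middle cell's (median 0.206%), and the ranges overlapped almost wholly. In cells up to 100 the medians were in the other order, 0.148% in basal OHCs against 0.0341% in middle OHCs. A summed share can rest on 1 marker in a cell. Strip2, also an OHC marker, reached 2977.5 CPM in basal OHC 50, which held 85.6% of its basal counts. In middle OHC 37 it reached 5252.5 CPM, with 98.3% of its middle counts up to 100. Its pooled difference was 0.32, and −0.93 within numbers up to 100. The part of Strip2 in the order of these medians was not tested. Markers of inner hair cells were near 0 in the basal OHCs. They summed to at most 0.00199% of a basal cell's counts, against up to 0.367% in a middle cell. Otof, the vesicle fusion protein of inner hair cells, had 0.14 CPM pooled in basal OHCs and 33.4 CPM in middle OHCs, where it reached 3671 CPM in 1 cell. Of 5 inner hair cell markers past the filter 0 were higher and 4 lower, and within numbers up to 100 it was 1 and 3 of 4. In most of the labelled basal OHCs the defining OHC markers were low too, and the cells are called basal OHCs here by their label. Many middle OHCs numbered up to 100 were low as well. In that range the medians of Slc26a5 were 0.76 CPM in basal OHCs and 0 CPM in middle OHCs, and those of Ocm 37.8 and 36.5 CPM. Those of Ikzf2 were 9.16 CPM in basal OHCs and 66.5 CPM in middle OHCs.

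Among 12 general hair cell genes 11 passed, 3 of them higher and 6 lower, with a median of −2.47, and within numbers up to 100 it was 4 and 3 of 7, with a median of 1.09. Myo6, an unconventional myosin of the hair bundle and cell body, reached 1508 CPM in basal OHC 41 and at most 6.87 CPM in the other 7 basal cells, with a median of 440.5 CPM in middle OHCs. Its pooled difference was −0.67, and −7.88 without basal OHC 41. Rbm24, a splicing factor of hair cells, had a median of 0.349 CPM in basal OHCs (highest 260.3 CPM) and of 72.3 CPM in middle OHCs (highest 14507 CPM), and pooled levels of 11 CPM in basal OHCs and 861 CPM in middle OHCs, a difference of −5.21. Espn, which encodes the actin bundler espin, was the opposite case. It had 553 CPM in basal OHCs and 77 CPM in middle OHCs, a difference of 3.82, but 1 cell, basal OHC 41 with 1775 CPM, decided it, and without that cell the difference was −2.47. Srrm4 and Pcp4 were higher too, by 3.10 and 2.24, and stayed so without the deepest cell of each region, at 3.31 and 1.94. Pcp4 had medians of 35.4 CPM in basal OHCs and 8.07 CPM in middle OHCs, whereas Srrm4 had a read in only 3 of 8 basal cells. Pou4f3, a transcription factor hair cells need to survive, was at 2.90 CPM in basal OHCs and 288 CPM in middle OHCs, pooled, with a difference of −5.32. In the range up to 100 Pou4f3 was low in both, at 3.20 CPM in basal OHCs and 3.91 CPM in middle OHCs.

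In the mechanotransduction complex, Lhfpl5 and Tmie were close to absent from the basal OHCs. Of its 13 listed genes 9 passed, 0 higher and 6 lower, around a median of −2.24 beside −2.55 over all genes. Among cells up to 100, 2 of 5 were higher and 3 lower, around −1.58 beside 1.68. Lhfpl5, a partner of the tip link protein Pcdh15, had 0, 0.113 and 1.01 CPM as lowest, median and highest in basal OHCs, and 0, 0.534 and 2361 CPM in middle OHCs. No basal OHC passed 10 CPM, whereas 10 of 23 middle OHCs did, 3 of them numbered up to 100. Within that range 1 middle cell held 89.7% of the middle counts of Lhfpl5. Pooled, Lhfpl5 was at 0.21 CPM (0.0771 to 0.457) in basal OHCs and 571 CPM (566 to 576) in middle OHCs, a difference of −8.29, which ranged over −8.38 to −7.52 with any 1 cell left out. Tmie, a small membrane protein of the same channel, spanned 0 to 0.679 CPM in basal OHCs (median 0) and 0 to 5552 CPM in middle OHCs (median 0.307 CPM). At 0.245 CPM (0.0985 to 0.505) in basal OHCs against 293 CPM (289.5 to 296) in middle OHCs, its difference was −7.27, and −7.92 within numbers up to 100. There, 3 of 16 middle OHCs passed 10 CPM and 1 of them held 94.6% of the middle counts of Tmie, so the difference within this range rests mainly on 1 cell. When each cell was thinned to 221542 counts, which left 7 basal and 21 middle OHCs, Lhfpl5 and Tmie each had a read in 0 of 7 basal cells (0%, Clopper-Pearson interval up to 41%) and in 10 of 21 middle cells (47.6%, 25.7% to 70.2%). These intervals cover counting error over the cells at hand, not the spread between animals, and both genes were chosen for their low basal levels. Unthinned, 50% of basal and 52.2% of middle OHCs had a read of Lhfpl5. Low levels were not confined to basal OHCs, since the median middle OHC up to 100 had 0 CPM of both genes. Apical OHCs up to 100 had 1.59 CPM of Lhfpl5 and 11.3 CPM of Tmie pooled, against 1329 and 419 CPM over all apical OHCs. Apical, middle and basal inner hair cells up to 100 had 33.2, 599 and 7.06 CPM of Lhfpl5, and 41, 43.4 and 88.4 CPM of Tmie. Exons of Tmie overlap those of Als2cl on the opposite strand, and no source used here says if counting was stranded.

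Tmc1 encodes the pore-forming subunit. Its pooled levels were 63.1 CPM in basal OHCs and 172 CPM in middle OHCs, a difference of −0.44. In basal OHCs, however, nearly all Tmc1 counts came from basal OHC 49 with 1814 CPM, and without it the difference was −6.31. The other 7 basal cells had at most 1.02 CPM, while 16 of 23 middle OHCs passed 10 CPM. Cib2, which encodes a calcium-binding subunit of the channel, had 358 CPM in basal OHCs and 1264 CPM in middle OHCs, a difference of −0.82, and −1.48 without basal OHC 48. It was higher in basal OHCs within numbers up to 100, at 394 CPM against 3.87 CPM in middle OHCs. Tomt, needed to carry the channel to the bundle, had 0 counts in all basal OHCs and 13.3 CPM in middle OHCs, which makes it at least 63.4-fold lower with TMM scaling (126.9-fold on total counts) when 3 counts over the group are taken as the limit. Within numbers up to 100 Tomt was at most 3.39 CPM in middle OHCs too.

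Genes of the bundle's links and base were mostly lower, as were 62.6% of all genes (median −2.55). Of 12 that passed, 1 was higher and 9 lower, with a median of −3.54, and within numbers up to 100 it was 2 and 5 of 8, with a median of −2.26 beside 1.68 over all genes. Ptprq, a phosphatase of the shaft connectors, had 0 counts in every basal OHC and up to 592 CPM in middle OHCs, 194 CPM pooled. With the same limit of 3 counts it was at least 922-fold lower with TMM scaling, and 1846-fold on total counts. Ptprq passed 10 CPM in 7 of 23 middle cells, 6 of them numbered above 100. Of 20 genes of the stereocilia's actin core 1 was higher and 14 lower, with a median of −2.61, near that of all genes. Within numbers up to 100 the counts turned to 6 and 1 of 9, beside 53.5% and 37.8% of all genes. Espnl, an espin relative, had 0 basal counts and 38.1 CPM in middle OHCs (at least 181-fold lower with TMM scaling and 362.7-fold on total counts), though at most 3.39 CPM in the middle cells up to 100. Actb, the most abundant of this list, had medians of 11451 CPM in basal OHCs and 8072 CPM in middle OHCs, with pooled levels of 8442 CPM in basal OHCs and 9319.7 CPM in middle OHCs.

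Among genes of calcium handling, Atp2b2 was low in most basal OHCs and S100a1 in all of them. Atp2b2, the plasma membrane calcium pump of the stereocilia (chr6:113743831-114042613), had 0, 1.28 and 45.6 CPM as lowest, median and highest in basal OHCs, and 0, 70.3 and 4589.9 CPM in middle OHCs. The pooled levels of Atp2b2 were 2.83 CPM (2.25 to 3.52) in basal OHCs and 1348 CPM (1341 to 1356) in middle OHCs, a difference of −7.57. Up to number 100 it was −5.30, with 3 CPM in basal OHCs and 265 CPM in middle OHCs. S100a1, a small calcium sensor, was at 1.43 CPM (1.03 to 1.95) in basal OHCs and 418 CPM (413 to 422) in middle OHCs, a difference of −6.61 that ranged over −7.01 to −6.18 with any 1 cell left out. No basal OHC passed 8.87 CPM of S100a1, and 14 of 23 middle OHCs passed 10 CPM. Calb2, encoding the buffer calretinin, went the other way, with a median of 113.01 CPM in basal OHCs and 6.86 CPM in middle OHCs and pooled levels of 158 CPM in basal OHCs and 91.7 CPM in middle OHCs. Its difference was 1.77, and 1.08 without basal OHC 52. As lists, 1 of 13 calcium buffers and sensors was higher and 7 lower (median −1.31), and 1 of 14 calcium pumps and exchangers was higher and 9 lower (median −2.31), beside −2.55 over all genes. In the range up to 100 the buffers were 6 and 4 of 10, with a median of 1.37, and the pumps 3 and 4 of 7, with a median of −2.67, beside 1.68.

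**Figure D2:**
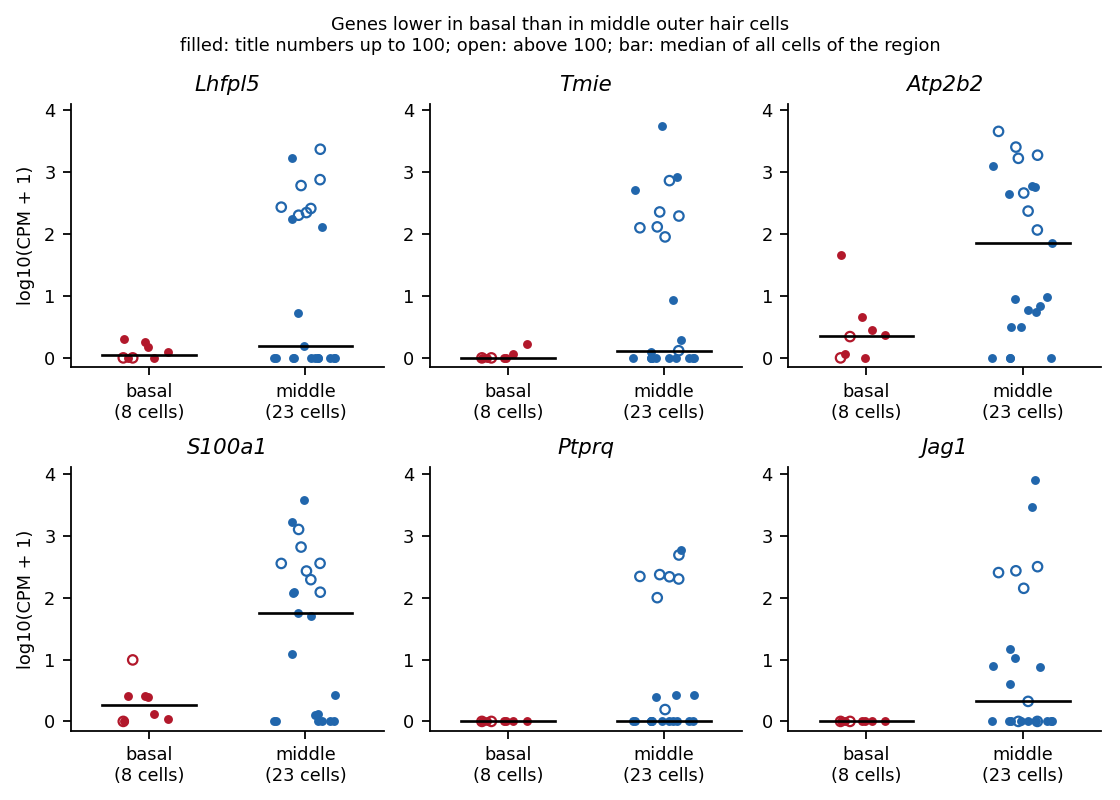
Levels of 6 genes that were lower in basal OHCs, per cell, as log10(CPM + 1), with basal OHCs left of middle OHCs. Filled points are cells with title numbers up to 100, open points those above 100, and bars are medians. Lhfpl5, Tmie, Ptprq and Jag1 lie near 0 in every basal OHC and are high in only part of the middle OHCs, most of them numbered above 100 for Lhfpl5 and Ptprq.

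Of 11 potassium channel genes that passed, 2 were higher and 8 lower, with a median of −3.71, beside 62.6% lower and −2.55 over all genes. In cells up to 100, 3 of 7 were higher and 4 lower. Kcnma1, the large-conductance calcium-activated channel, had 11.6 CPM in basal OHCs and 157 CPM in middle OHCs, a difference of −2.68. In the range up to 100 it was at 6.47 CPM in basal OHCs and 0.644 CPM in middle OHCs, a difference of 2.71, so its direction depended on the cells above 100. At the efferent synapse, by which the brainstem inhibits OHCs, 3 genes passed and all 3 were lower, beside 62.6% of all genes. Within numbers up to 100 only 1 passed, again Kcnma1, and it was higher, as were 53.5% of all genes. Kcnma1 and Kcnn2 belong to both this list and that of potassium channels, so these counts are not separate results. Chrna9, a subunit of the nicotinic receptor there, was at 0.105 CPM (0.0217 to 0.307) in basal OHCs and 178 CPM (175 to 181) in middle OHCs, a difference of −6.79. But all 6 middle cells with over 10 CPM of Chrna9 were numbered above 100, and within numbers up to 100 the levels were 0.116 CPM in basal OHCs and 0.362 CPM in middle OHCs, a difference of −0.14. Kcnn2, its partner channel, had a difference of −3.71 over all cells, and 0.693 CPM in basal OHCs against 1.25 CPM in middle OHCs within numbers up to 100. Of 22 genes of the ribbon synapse and vesicle cycle, 7 were higher and 11 lower (median −1.03), and 9 and 6 of 16 within numbers up to 100 (median 1.61). Of 18 of the lateral wall and cortical cytoskeleton, 6 were higher and 7 lower (median −0.66). Among cells numbered up to 100 the lateral wall genes had a median of −1.20, with 6 of 16 higher and 8 lower.

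Of 23 transcription factors of hair cells that passed, 5 were higher and 14 lower, with a median of −2.47, shares near those of all genes. Up to number 100 it was 7 and 8 of 16, with a median of −0.80 beside 1.68. Isl1, a LIM homeodomain factor, had 0.226, 4.15 and 59.6 CPM as lowest, median and highest in basal OHCs, and 0, 63.5 and 3804 CPM in middle OHCs. It passed 10 CPM in 1 of 8 basal and 17 of 23 middle cells, the 1 basal cell being the shallower of the 2 above 100. Pooled, Isl1 was at 2.17 CPM (1.66 to 2.78) in basal OHCs and 408 CPM (404 to 412) in middle OHCs, a difference of −6.15, and −7.99 within numbers up to 100. Eya1, a transcriptional coactivator of inner ear development, had a difference of −8.07, of which 1 middle cell, numbered 32 with 22428 CPM, held most of the reads, and it was −4.08 without that cell. Nfia, a nuclear factor I family member, was higher, with medians of 3849 CPM in basal OHCs and 816 CPM in middle OHCs, pooled levels of 5449 CPM in basal OHCs and 1148 CPM in middle OHCs and a difference of 3.25, and 2.05 within numbers up to 100. Sox4, a factor of differentiating cells, had medians of 167 CPM in basal OHCs and 3.01 CPM in middle OHCs and a difference of 4.12. Nfix rested on basal OHC 41, with 3.34 over all cells and 0.68 without it. All 7 genes that passed of a list with regional expression in the developing cochlear duct were lower, with a median of −3.49, beside 62.6% lower and −2.55 over all genes. Within numbers up to 100 both that passed were lower, beside 37.8% of all genes. That list was drawn up for apex against base and not for this comparison.

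While most genes were lower over all cells, more cytosolic ribosomal protein genes were higher than lower with TMM scaling, and about as many with total counts. Of 79 cytosolic ribosomal protein genes that passed, 39 were higher and 17 lower, with a median of 0.99, beside 24.4% and 62.6% of all genes. With total counts the list split evenly, 24 higher and 25 lower, which still differs from 17.7% and 68.3% over all genes. Within numbers up to 100 it was 58 and 5 of 66, around a median of 4.27 beside 1.68. As a share of a cell's counts, these genes held 0.765% to 6.38% in basal OHCs (median 2.84%) and 0.031% to 2.67% in middle OHCs (median 1.17%). In cells up to 100 the medians were 3% in basal OHCs and 0.419% in middle OHCs, and 5 of 6 basal cells were above the highest middle cell. Above 100 the levels overlapped, with 0.765% and 2% in the 2 basal OHCs and 1.22% to 2.19% in middle OHCs. Rps25, a protein of the small subunit, had medians of 5872 CPM in basal OHCs and 848 CPM in middle OHCs and pooled levels of 7666 CPM in basal OHCs and 1786 CPM in middle OHCs, a difference of 3.10. Rpl32, of the large subunit, had a difference of 6.06, but its median was below 1 CPM in both groups, 0.918 CPM in basal OHCs and 0.38 CPM in middle OHCs, and the reads came from few cells. Many ribosomal protein genes have near-identical pseudogenes, so their reads could have been split or lost in counting. Globins, from red blood cells, had medians of 0.817% of counts in basal OHCs and 0.064% in middle OHCs within numbers up to 100, and their part in these differences was not tested. Of mitochondrial ribosomal protein genes, 14 of 48 were higher and 28 lower over all cells, with a median of −2.78, and 18 and 4 of 22 within numbers up to 100.

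Of 34 nuclear genes of respiratory complexes III to V that passed, 12 were higher and 14 lower, with a median of −0.44, and with total counts 4 and 18. In the range up to 100 the counts were 19 and 4 of 24, with a median of 2.93. Cox6b1, a subunit of cytochrome c oxidase (chr7:30616861-30626151), had 7.45, 1415 and 8598 CPM as lowest, median and highest in basal OHCs, and 0, 1.69 and 1271 CPM in middle OHCs. Pooled, Cox6b1 was at 3316 CPM (3295 to 3337) in basal OHCs and 506 CPM (502 to 511) in middle OHCs, a difference of 3.71, and 9.65 within numbers up to 100, where the levels were 3598 CPM in basal OHCs and 6.72 CPM in middle OHCs. All 6 basal OHCs up to 100 were above all 16 middle OHCs of that range, while middle cells above 100 had 207 to 1271 CPM. Uqcrq, a subunit of complex III, had medians of 553 CPM in basal OHCs and 12.6 CPM in middle OHCs and a difference of 2.98. Its lowest basal cell up to 100 had 156 CPM, against at most 31.3 CPM in the middle cells of that range. In the other groups of the series, Cox6b1 was at 394 CPM in apical OHCs, 215.7 CPM in apical and 259.7 CPM in middle inner hair cells, but at 2288 CPM in basal inner hair cells. Of 32 nuclear genes of complex I 5 were higher and 17 lower (median −1.11), and within numbers up to 100 it was 13 and 4 of 17. Mitochondrially encoded genes were 6 higher and 2 lower of 11, with a median of 1.52, and 6 and 1 of 9 within numbers up to 100. With total counts it was 5 and 3, with a median of 0.63. Their pooled sum was lower, at 17617 CPM in basal OHCs and 37105 CPM in middle OHCs, whereas the medians of the cells were 13781 CPM in basal OHCs and 8663 CPM in middle OHCs.

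**Figure D3:**
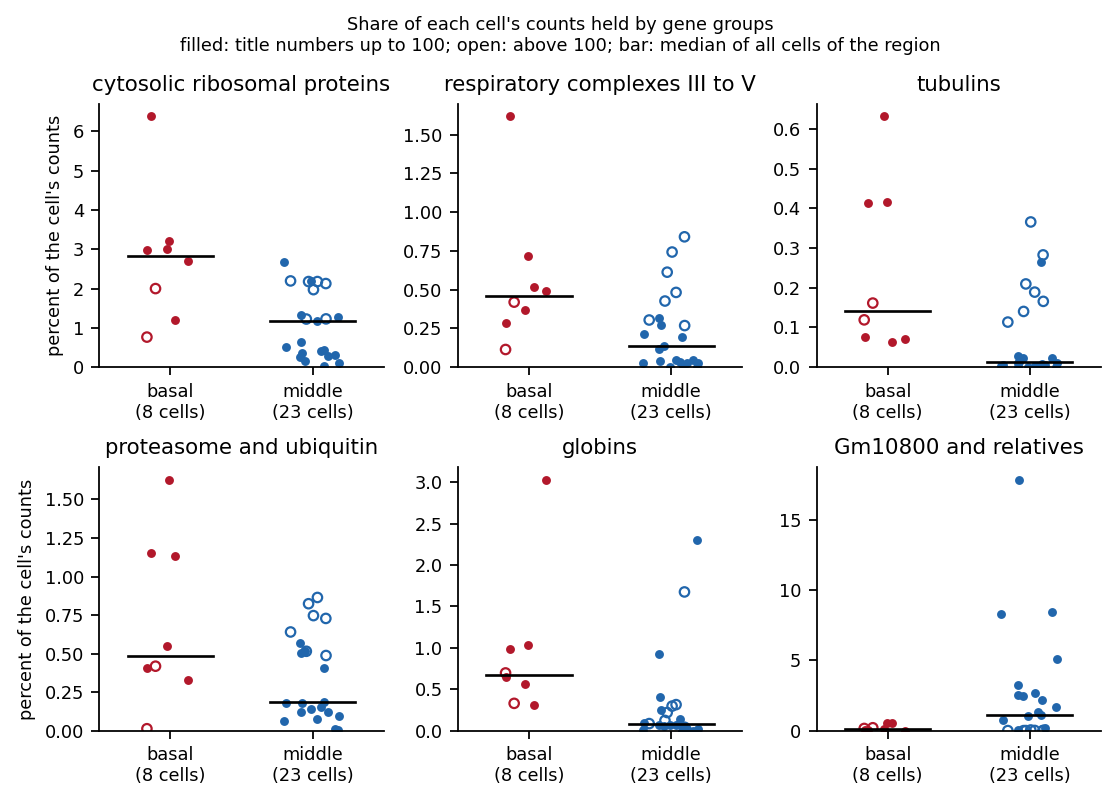
Share of each cell's counts, in percent, held by 6 gene sets, with basal OHCs left of middle OHCs. Filled points are cells with title numbers up to 100, open points those above 100, and bars are medians. For ribosomal proteins and complexes III to V the filled basal points lie mostly above the filled middle points, and the open points overlap, while Gm10800 and relatives are highest in the filled middle points.

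Tubulins and the proteasome changed with the range of numbers, as all genes did. Of all genes 24.4% were higher and 62.6% lower over all cells (median −2.55), and 53.5% and 37.8% up to number 100 (median 1.68). Over all cells 3 of 11 tubulin genes were higher and 5 lower, with a median of −0.71, and within numbers up to 100 it was 6 and 1 of 7, with a median of 5.64. Tuba1b, an alpha tubulin, had medians of 589.5 CPM in basal OHCs and 43.7 CPM in middle OHCs and pooled levels of 993 CPM (982 to 1005) in basal OHCs and 329.6 CPM (326 to 333) in middle OHCs, a difference of 2.59, and 5.66 within numbers up to 100. Exons of Tuba1b overlap the predicted gene Gm49450 on the same strand, so its counts are uncertain. Of 30 proteasome and ubiquitin genes 7 were higher and 17 lower (median −2.23), shares near those of all genes, and 15 and 5 of 20 within numbers up to 100 (median 3.55). Members of the 20S core differed in sign. Psma4 had a median of 33.2 CPM in basal OHCs and 0 CPM in middle OHCs, and a difference of 3.95, which was 1.52 without basal OHC 52. Psma3 had 0.315 CPM (0.144 to 0.598) in basal OHCs against 384 CPM (379.8 to 388) in middle OHCs, a difference of −7.56. Skp1a, a subunit of ubiquitin ligases and the most abundant of the list, had medians of 2294 CPM in basal OHCs and 491 CPM in middle OHCs and a difference of 3.82 that stayed at 3.46 within numbers up to 100.

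Set beside all genes, the lists kept their order only in part. Over all cells, blood and immune markers, mitochondrially encoded genes and cytosolic ribosomal proteins had medians 4.14, 4.07 and 3.54 above that of all genes. Among cells numbered up to 100, tubulins lay 3.97 above and cytosolic ribosomal proteins 2.60 above. Potassium channels lay below the median of all genes in both, by differences of −1.17 and −2.71, and so did stereocilia links and base, at −0.99 and −3.94. Several lists near the median of all genes over all cells lay far below it within numbers up to 100. Supporting cell genes were at −0.15 and −5.63, calcium pumps and exchangers at 0.23 and −4.35, the 9 OHC markers at 0.09 and −3.45, transcription factors at 0.08 and −2.47, and genes of mechanotransduction at 0.31 and −3.25. Smaller turns to below it were those of general hair cell genes (0.08 and −0.59), immediate early genes (0.61 and −0.87) and antioxidant genes (0.97 and −0.38). The opposite turn was found for BMP and activin signalling (−0.04 and 1.67), mitochondrial ribosomal proteins (−0.23 and 1.30) and the actin core (−0.06 and 0.22).

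**Figure D4:**
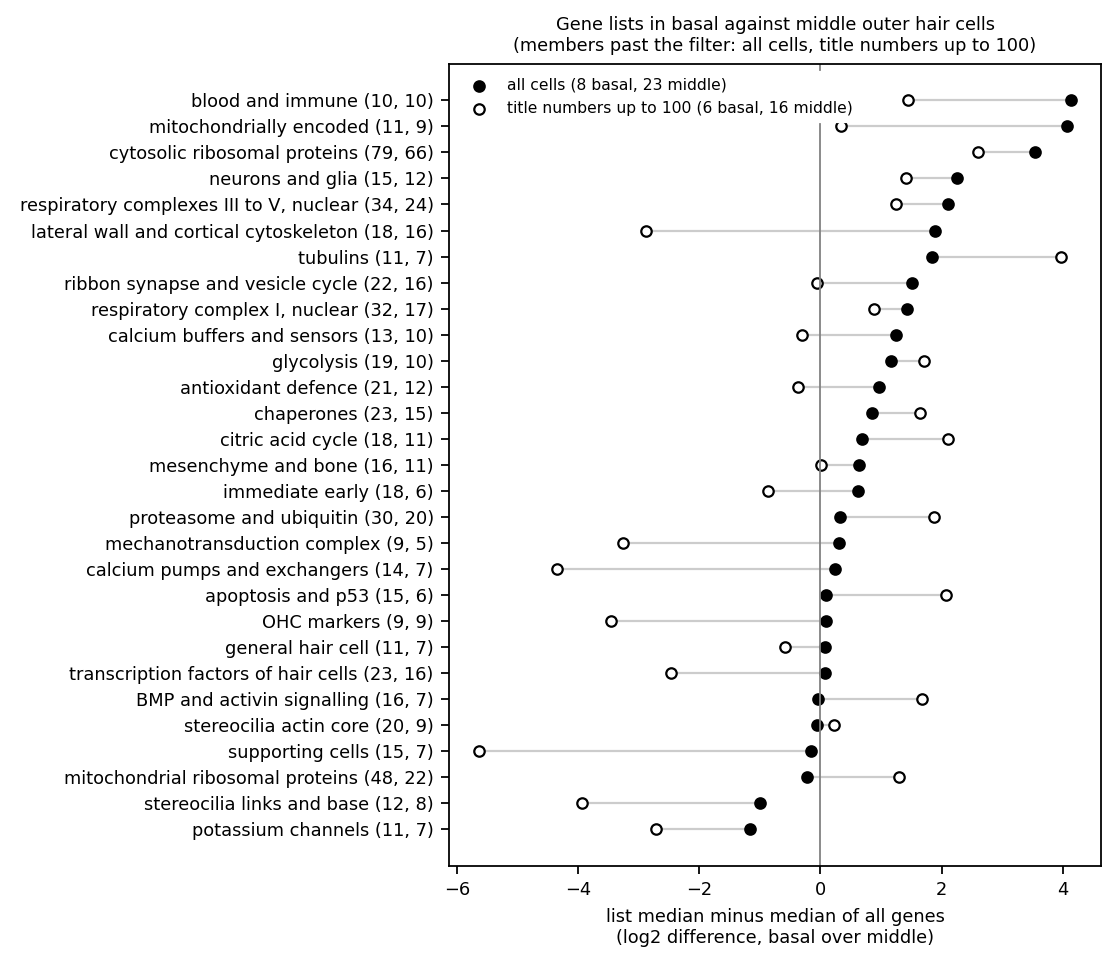
Median difference of each gene list minus the median of all genes, in log2 units, basal over middle. Filled points are all cells (8 basal and 23 middle OHCs) and open points are cells with title numbers up to 100 (6 and 16). Cytosolic ribosomal proteins lie to the right of 0 in both, and potassium channels and stereocilia links and base to the left in both.

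A further 24 genes were named by a rule on the size of the difference: at least 2-fold in the same direction over all cells, in the mean of the cells and within numbers up to 100, with reads in at least 50% of the cells of the higher group and no cell holding over 50% of its counts. Of all 9498 genes, 17% were higher and 16.9% lower on all of these 3 measures, and 98 and 422 genes met the whole rule. The 12 with the largest smallest difference are given for each direction. As the rule used these differences, the values are a description.

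Among the 12 that were higher, Ogdhl, an oxoglutarate dehydrogenase-like mitochondrial enzyme (chr14:32322019-32348151), was the most abundant. It had 119.2, 6652 and 32604 CPM as lowest, median and highest in basal OHCs, and 0, 348 and 9779.6 CPM in middle OHCs, with pooled levels of 9226 CPM (9191 to 9261) in basal OHCs and 550.2 CPM (545 to 555) in middle OHCs and a difference of 5.07. Vcp, an ATPase that extracts ubiquitinated proteins (chr4:42979963-43000507), had medians of 2131 CPM in basal OHCs and 36.1 CPM in middle OHCs and pooled levels of 4268 CPM (4244 to 4292) in basal OHCs and 199 CPM (196 to 201) in middle OHCs, a difference of 5.42. All 8 basal OHCs had more Vcp than the median middle OHC. In the remaining groups of the series pooled Vcp was 104.5 to 491 CPM. Ctsa, a lysosomal carboxypeptidase, had the largest difference of the 12, 6.58, but it passed 10 CPM in 3 of 8 basal OHCs, with medians of 1.07 CPM in basal OHCs and 0 CPM in middle OHCs. Bms1, a ribosome biogenesis factor, had medians of 158 CPM in basal OHCs and 0.534 CPM in middle OHCs and a difference of 4.77. Myh9, a non-muscle myosin heavy chain, had medians of 278 CPM in basal OHCs and 9.34 CPM in middle OHCs and a difference of 4.89. Tomm40, the pore of the mitochondrial outer membrane import complex, differed by 4.99 and Polr2f, a subunit shared by RNA polymerases, by 3.52. Agpat1 and Mgll, enzymes of lipid metabolism, differed by 5.04 and 3.95, Gamt, of creatine synthesis, by 3.65, and Ammecr1 and Vmo1 by 5.08 and 3.97. In none of these 12 did the groups separate over all cells.

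Among the 12 that were lower, Hspa2, an Hsp70 family chaperone (chr12:76404176-76406938), passed 10 CPM in more middle OHCs than the other 11. It had 0, 0 and 3.12 CPM as lowest, median and highest in basal OHCs, and 0, 682 and 5283 CPM in middle OHCs, where 16 of 23 cells passed that level. Pooled, Hspa2 was at 0.455 CPM (0.242 to 0.778) in basal OHCs and 1047 CPM (1041 to 1054) in middle OHCs, a difference of −8.82, and −8.27 within numbers up to 100. The remaining groups of the series had 824 to 2201 CPM of Hspa2 pooled, but the median of the basal inner hair cells was 4.40 CPM, against 546 to 2066 CPM in the other 3 groups. Kantr differed by −8.60, Pfkfb2, an enzyme that sets the level of a glycolytic activator, by −8.76, and Arhgap44, a GTPase-activating protein, by −8.85. Ubr2, a ubiquitin ligase of the N-degron pathway, had medians of 0.17 CPM in basal OHCs and 24.1 CPM in middle OHCs and a difference of −7.26. Tnpo1, a nuclear import receptor, differed by −8.29, Adarb1, an adenosine-to-inosine RNA editing enzyme, by −7.73, and Bcr by −8.00. Appbp2 and Vps37a, a subunit of the ESCRT-I complex, differed by −7.08 and −6.85. Lhfpl5 and Tmie, described above, complete the 12. Within numbers up to 100, 1 middle cell held 99.9% of the middle counts of Arhgap44, 99.6% of Pfkfb2, 99.5% of Bcr and 98.3% of Tnpo1. Its share was 64.3% for Adarb1, 62.8% for Ubr2 and 51.7% for Vps37a, and 48.1%, 37.8% and 32.2% for Appbp2, Kantr and Hspa2. For the first 4 of these genes the difference within that range thus rests on 1 cell.

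**Figure D5:**
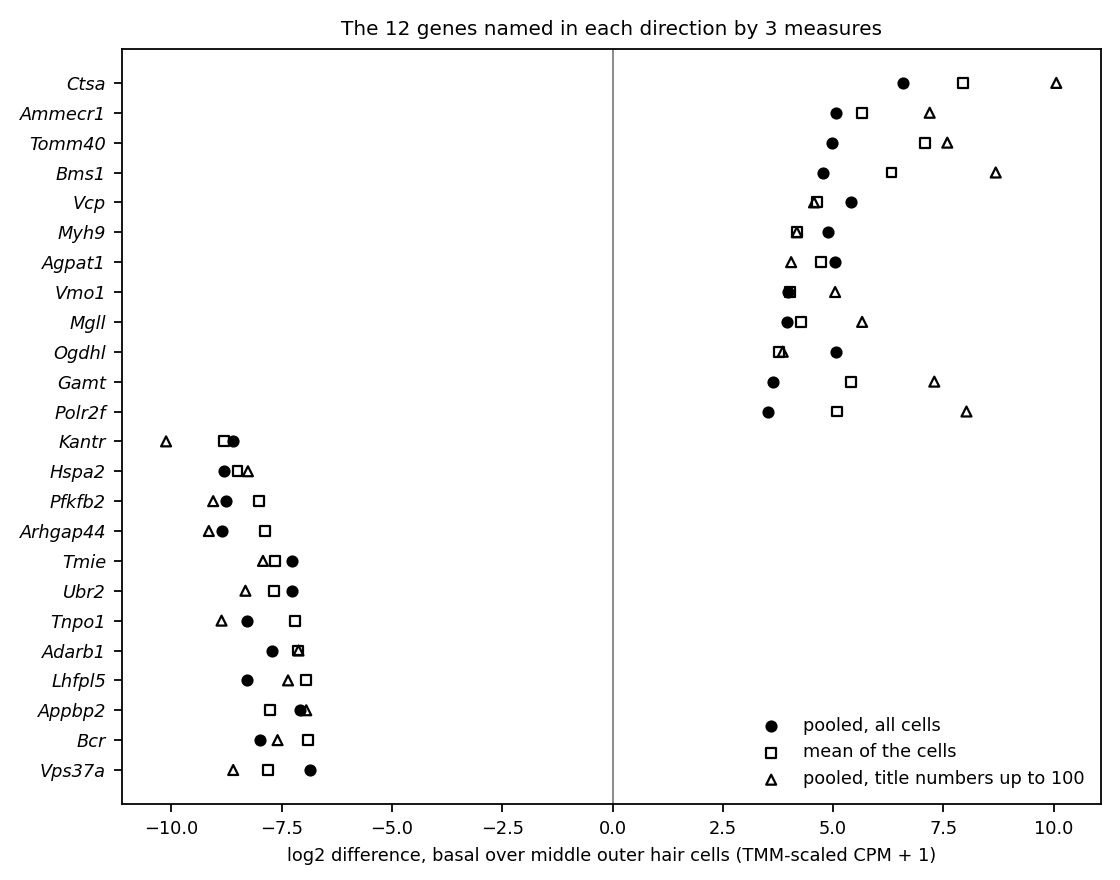
Differences of the 24 genes named by rule, as log2 of the ratio of (CPM + 1), basal over middle. The 3 kinds of point are all cells pooled, the mean of the cells, and cells with title numbers up to 100. Hspa2 and Arhgap44 lie furthest to the left over all cells pooled, at −8.82 and −8.85, and Ctsa furthest to the right, at 6.58.

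No gene of the 9498 had every basal OHC above every middle OHC, or every one below. Up to number 100 there were 32 of 4848 genes (0.66%) with all 6 basal cells above all 16 middle cells, and 0 (0.0%) with all below. In both comparisons the count of genes with all basal cells below was bound to be near 0. The shallowest middle OHC had reads of only 681 genes, and no basal cell can lie below a level of 0. The counts above and below can therefore not be set against each other. The 32 genes included Cox6b1, Uqcrq, Ndufa13 and Coa3 of the respiratory chain and its assembly, Tuba1b, the proteasome genes Psma4 and Pomp, and Gabarap and Gabarapl1 of autophagy. Others were Rhoc, Rab2a, Vamp8, Mt2, Rpl37, Eef1d and, from connective tissue, Col2a1, Serpinf1, Ibsp and Timp2. They were picked out of the 32 after their values were seen. Over all cells the differences of Ndufa13 and Col2a1 were negative, at −0.998 and −1.50, and the median of Ndufa13 in basal cells up to 100 was 0.591 CPM. Exons of Eef1d overlap Naprt on the same strand, and those of Coa3, Gabarapl1, Mt2, Ndufa13 and Psma4 overlap other genes on the opposite strand.

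Markers of other cell types differed alongside. Globins, from red blood cells, held 0.304% to 3.03% of the counts of a basal OHC (median 0.671%) and 0% to 2.31% of a middle OHC (median 0.0856%). Of 10 blood and immune genes that passed, 7 were higher and 1 lower, with a median of 1.59, and 7 and 1 within numbers up to 100. Hbb-bs, a beta globin, was at 9682 CPM in basal OHCs and 811 CPM in middle OHCs pooled, a difference of 4.58. Markers of neurons and glia summed to 0.539% to 2.39% in basal OHCs (median 1.13%) and 0.00593% to 1.55% in middle OHCs (median 0.647%). Of 15 such genes 5 were higher and 6 lower (median −0.29), and within numbers up to 100 it was 9 and 1 of 12. Nefm, a neurofilament gene whose exons overlap Nefl on the opposite strand, had medians of 4878 CPM in basal OHCs and 1814 CPM in middle OHCs. Mesenchyme and bone markers summed to 0.249% to 3.21% in basal OHCs (median 1.37%) and 0.00316% to 3.72% in middle OHCs (median 0.878%), and 3 of 16 were higher and 8 lower, with 6 and 4 of 11 within numbers up to 100 (median 1.69). Col1a1, the main collagen of bone, had medians of 5644 CPM in basal OHCs and 2826 CPM in middle OHCs and a difference of 2.39, the same within numbers up to 100. Supporting cell markers summed to a median of 0.177% in basal OHCs and 0.115% in middle OHCs. Of 15 that passed 4 were higher and 11 lower (median −2.70), and within numbers up to 100 it was 3 and 4 of 7 (median −3.96 beside 1.68). Jag1, a Notch ligand of supporting cells, had 0 counts in all basal OHCs and 469 CPM in middle OHCs, at least 2229-fold lower with TMM scaling and 4464-fold on total counts. Of 4 genes of the stria vascularis 1 was higher and 2 lower, and of 3 of pericytes and endothelium likewise 1 and 2. Up to number 100 these were 1 and 3 of 4, and 1 and 0 of 1. A set of 10 predicted genes related to Gm10800, which share sequence with each other, held a median of 0.0955% of counts in basal OHCs and 2.32% in middle OHCs within numbers up to 100, and up to 17.9% in 1 middle cell. Above 100 they held 0.00481% to 0.05% in middle OHCs. The part of these signals in the differences given was not tested. At the depth of 221542 counts per cell, basal OHCs had a median of 2150 genes with a read and middle OHCs 2817. Within numbers up to 100 the medians were 2141.5 genes in basal OHCs and 1997.5 genes in middle OHCs, and the middle OHCs above 100 had 6618.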

How the data were processed

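Per the labels' protocols, Illumina sequencing was run on libraries of single cochlear cells. The values are raw counts, in a table the authors deposited with 55335 lines of genes and 139 cells, of which 0 columns stayed unused. The submitters' processing notes name Trimmomatic, HISAT2, featureCounts of Subread 1.4.6 and GRCm38 (mm10). No source used here says if counting was stranded, if molecular identifiers were used or how multi-mapping reads were handled. Intervals therefore cover counting error only, and reads of near-identical genes could be split or lost.

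Identifiers were matched to GENCODE M21, 54587 with version and 55154 without. The 181 lines without a symbol held 0.00969% of counts and were left out of lists and named genes. Counts were summed per region in Python 3.11.15 (pandas 2.3.3, numpy 2.4.6, scipy 1.17.1) and scaled with TMM of edgeR 4.0.16 in R 4.3.3. Each difference is log2((basal CPM + 1)/(middle CPM + 1)). Genes needed 5 CPM in 1 group, and 2-fold was the limit for calling a difference. Poisson and Clopper-Pearson intervals are at 95%. For genes with 0 counts, 3 counts over the group were the limit. For thinning, percentile 10 of the 31 totals was the depth. The differences were also computed on simulated cells with known differences. Genes were drawn independently there and without the 2 ranges of title numbers, so that run cannot show how the ranges affect the values.

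Genes named by rule were not predicted, ribosomal, mitochondrial or pseudogene symbols, and needed at least 10 CPM in the higher group. The rest of the rule stands beside the genes. The 12 with the largest smallest difference were taken in each direction, and list members could be named by their place in a list. Cells, lists and rule were chosen with earlier results of these data known. Alternatives were equal weight per cell, the median of the cells, cells numbered up to 100, the deepest or any 1 cell left out, thinning, scaling by totals or with DESeq2 1.42.0 size factors, totals without mitochondrial and rRNA-like genes, pseudocounts of 0.1 and 5, and no filter or one of 20 CPM. Some genes are not reported here. Figures were drawn with matplotlib 3.10.9.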

Additional observations from a re-analysis of the deposited data

Results flagged for a closer look

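Summed levels of gene lists were looked at for cells far from the rest of their region. Among the 8 basal OHCs, 15 quantities were examined and 5 had 1 cell whose distance to the next, divided by the whole range, was above 0.526. Chance passes that limit in about 1 in 20 groups of normally distributed values. Several of the quantities here were skewed and the cells differed in depth, so that rate need not hold and the 5 are a description. Basal OHC 41 held 1.18% of its counts on OHC markers, with the next cell at 0.30%. The same cell held 3.03% on globins, with the next at 1.03%. Basal OHC 52 held 6.38% on cytosolic ribosomal proteins, with the next at 3.21%, and 1.62% on nuclear genes of respiratory complexes III to V, with the next at 0.716%. Basal OHC 51 held 2.39% on markers of neurons and glia, with the next at 1.31%. The 23 middle OHCs were too many for this comparison.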

How the results depend on the processing

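No paired analysis was possible because only 1 title number occurs in both regions, and nothing in the labels says that it marks a shared animal. The count of genes at least 2-fold higher was 2313 and that of genes at least 2-fold lower 5947. Weighting cells equally gave 3848 lower genes, the median of the cells 1069 higher and 374 lower, numbers up to 100 gave 1833 lower, and a filter of 20 CPM gave 2985 lower. Settings chosen after seeing the data gave 2099 lower (numbers up to 100 without basal OHC 41) and 1959 lower (mean of the cells within that range). The other counts stayed within 1.5 times. With any 1 basal cell left out, 1973 to 2413 genes were higher and 5816 to 6409 lower, and with any 1 middle cell left out, 2311 to 2446 and 5515 to 5950.

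The median over all genes, −2.55, became 1.68 within numbers up to 100, and 1.4 there when cells had equal weight. Among genes named that passed 2-fold, Col2a1 (0.17) turned positive in the mean of the cells, and Sri (0.93), Kcnma1 (0.35) and Col2a1 (6.62) by the median of the cells. Within numbers up to 100 Pou4f3 (0.43), Kcnma1 (2.71) and Col2a1 (6.10) did so, as they did there without basal OHC 41 (0.52, 3.03 and 6.46) and with equal weight per cell (2.44, 3.46 and 6.46). Vamp8 turned to −0.62 without basal OHC 52. Espn turned to −2.29 without the deepest cell of each region and −2.47 without basal OHC 41, and reached 4.19 with another basal cell left out. Of genes short of 2-fold, Cib2 (7.09) and Ndufa13 (2.74) turned positive within numbers up to 100, and Ocm (−3.39) and Ikzf2 (−6.70) negative without basal OHC 41.

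List medians minus that of all genes also turned, and the report gives further lists that started within 2-fold of it. In the mean of the cells it was −0.25 for calcium buffers and −0.22 for complex I. Within numbers up to 100 it was −0.063 for the ribbon synapse, −0.31 for calcium buffers and −2.88 for the lateral wall, and the lateral wall had −0.65 there without basal OHC 41. In the mean of the cells up to 100 it was −1.15 for calcium buffers, −1.76 for the lateral wall, −0.45 for mitochondrially encoded genes and −0.18 for blood and immune. Without basal OHC 41 complex I was at −0.072, and without basal OHC 52 glycolysis at −0.044. With any 1 basal cell left out these 2 reached at most 1.84 and 1.43. With no filter it was −0.23 for the ribbon synapse, −1.28 for calcium buffers, −0.43 for the lateral wall, −1.36 for glycolysis, −1.17 for complex I, −0.42 for complexes III to V and −0.18 for neurons and glia, and with a filter of 20 CPM −1.11 for glycolysis. The cause of these turns was not tested. Depth limits what the basal cells above 100 can show, since they hold 2615863 counts.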

Other observations

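Other gene groups also changed between all cells and numbers up to 100, as all genes did. Of all genes 24.4% were higher and 62.6% lower over all cells, and 53.5% and 37.8% within numbers up to 100. Of 19 glycolysis genes 4 were higher and 10 lower in basal OHCs over all cells (median −1.38), and 9 and 1 of 10 within numbers up to 100 (median 3.39). Of 18 citric acid cycle genes 2 were higher and 10 lower, and 8 and 3 of 11 within that range. Chaperones were 4 higher and 13 lower of 23, and 9 and 5 of 15. Hsp90ab1, a cytosolic chaperone, had medians of 2456 CPM in basal OHCs and 481 CPM in middle OHCs and a difference of 4.10, which was 4.22 within numbers up to 100. Antioxidant genes were 3 higher and 13 lower of 21, and 7 and 4 of 12. Within numbers up to 100 the chaperones and the antioxidant genes thus lay near the shares of all genes. Sod1, the copper and zinc superoxide dismutase, had medians of 8062 CPM in basal OHCs and 3959.5 CPM in middle OHCs and a difference of 1.61.

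BMP and activin signalling genes were 4 higher and 11 lower of 16, immediate early genes 6 and 11 of 18, and genes of apoptosis and p53 2 and 9 of 15. Their medians, −2.58, −1.93 and −2.45, lay beside −2.55 over all genes. Within numbers up to 100 the counts were 4 and 3 of 7, 3 and 3 of 6, and 5 and 1 of 6, with medians of 3.35, 0.81 and 3.75 beside 1.68.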
